A study of Homo sapiens with 4 samples.

Results

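Cyclins, cyclin-dependent kinases (CDKs) and CDK inhibitors were examined in A549 cells carrying a construct against DUSP23. The members were taken by name, by a rule written with earlier results of these data known. The set held every protein-coding gene whose symbol had the form CCN plus a letter and an optional number, CDK plus a number, or began with CDKN plus a digit, and came to 51 of the 16371 genes listed (13456 of them protein-coding), with 219 listed transcripts. By role, 16 were cyclins and kinases of the cell cycle, 13 were cyclins and kinases of transcription, 6 were inhibitors or, for CDKN3, a phosphatase of CDKs, and 16 were other relatives that carry the names. The rule also took CDKN2AIP and CDKN2AIPNL, which are not CDK inhibitors and are counted with the other relatives. CDKN2A and CDKN2B were not analysed here.

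A549 is an established human lung adenocarcinoma line. RNA came from clusters of these cells in 2 groups of 2 libraries each, shDUSP23 (labelled as a DUSP23 knockdown) and shMock (a control construct, labelled as wild type). The sources used here do not give the hairpins, what SUS stands for in the sample titles, or whether replicates were separate cultures. The p-values therefore cover only library-to-library spread, which may be technical. The values are the authors' FPKM (fragment numbers divided by transcript length and sequencing depth), summed here over the listed transcripts of each gene. FPKM is per length, so levels can be set beside each other between genes.

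DUSP23, the targeted phosphatase gene, stood at 1.71 and 2.71 FPKM in the shDUSP23 libraries, against 29.96 and 35.9 FPKM in the shMock libraries (log2 fold change -3.64, SE 0.22, limma with Benjamini-Hochberg adjusted p = 3.12e-05). The steps between low FPKM values gave totals of about 26970400 and 42158700 fragments for the shDUSP23 libraries and 21273100 and 25285800 for the shMock libraries. The deepest library, shDUSP23 replicate 2, also had the most transcripts listed at 0 (9946, against 2930 to 4814 in the others). Summed FPKM over all genes was 438604 and 446982 in shDUSP23 and 540163 and 578361 in shMock, and mitochondrially encoded genes took 8.12% and 7.97% of it in shDUSP23 and 12.3% and 13.07% in shMock. All 5 epithelial markers listed (KRT8, KRT18, KRT19, EPCAM and CDH1) were expressed, at 1634 and 1716 FPKM in sum in shDUSP23 and 2154 and 2111 FPKM in shMock, mostly KRT8 and KRT18. Of the 5, CDH1 (log2 fold change -1.56), EPCAM (-0.71) and KRT18 (-0.44) were called lower, and KRT8 (-0.26) and KRT19 (0.10) did not pass. Of 4 genes high in A549 (ALDH1A1, AKR1B10, AKR1C1 and NQO1), all were lower, with sums of 1415 and 1507 FPKM in shDUSP23 and 5418 and 6741 FPKM in shMock. Of 6 fibroblast markers 3 were listed, with sums of 4.57 and 4.90 FPKM in shDUSP23 and 3.18 and 2.60 FPKM in shMock. Of 6 leukocyte markers 2 were listed, with CD68 at 94.9 and 131 FPKM in shDUSP23 and 24.4 and 23.5 FPKM in shMock, and CD14 at 0.983 and 0.995 FPKM in shDUSP23 and 4.68 and 8.005 FPKM in shMock. The other leukocyte and fibroblast markers and the 4 endothelial ones were not analysed here, and the part of these differences in the results below was not tested.

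Cyclins are regulatory subunits that bind and switch on CDKs, and many of them are made and destroyed in step with the cell cycle. The D cyclins work with CDK4 and CDK6 in G1, where they phosphorylate the retinoblastoma protein, cyclin E with CDK2 acts at entry into S phase, cyclin A with CDK2 and CDK1 in S and G2, and cyclin B with CDK1 drives mitosis. Inhibitors of the CIP/KIP family bind several cyclin-CDK complexes, and those of the INK4 family bind CDK4 and CDK6. A separate branch of the family acts in transcription and hardly changes through the cycle. CDK7 with cyclin H belongs to the general factor TFIIH and is also the kinase that activates other CDKs, CDK8 and CDK19 with cyclin C belong to Mediator, CDK9 with cyclin T is P-TEFb, which releases paused RNA polymerase II, and CDK12 and CDK13 with cyclin K phosphorylate the elongating polymerase.

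Of the 51 genes, 46 averaged at least 1 FPKM across the libraries and were tested with limma on log2(FPKM + 0.5) together with all 13691 genes over that level. At a Benjamini-Hochberg adjusted p under 0.05 over all of these, 14 of the 46 were higher and 13 lower in shDUSP23 than in shMock (30.4% and 28.3%). Among all tested genes 23.1% were called higher and 22.2% lower, so as a whole the set was called not much more often than the rest of the transcriptome. Its median log2 fold change was -0.06, against 0.03 over all tested genes. In 19 members both shDUSP23 libraries were above both shMock libraries and in 19 below, which was the case in 39.3% and 36.2% of all tested genes. The classes differed in their counts. Among cell cycle members 3 of 13 were higher and 6 lower (median log2 fold change -0.65), among transcriptional members 2 of 13 were higher and 3 lower (median -0.04), among inhibitors 3 of 5 were higher and 1 lower (median 0.49), and among the other relatives 6 of 15 were higher and 3 lower (median 0.25).

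The summed FPKM of the libraries differed between the groups, and rescaling all libraries to equal sums moved the median of all genes to 0.34. On that scale 38.4% of 13739 genes were called higher and 12.3% lower, and 18 members were higher and 8 lower. Leaving out 1 library also moved these counts, to 8 members higher and 9 lower without shMock replicate 1 and to 5 higher and 8 lower without shMock replicate 2, when 2056 and 1613 genes in all were higher and 1879 and 1645 lower. Of the 27 called members, 10 kept their call and direction in each of the 15 alternatives run. CDK1, CCNB1, CCNB2, CCNA2, CDKN3 and CDK7 were lower in all of them, and CDK6, CCND1, CDKN1A and CDK18 were higher. The share of all called genes that kept their call in this way was not counted, so these 10 cannot be called unusually stable.

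**Figure D1:**
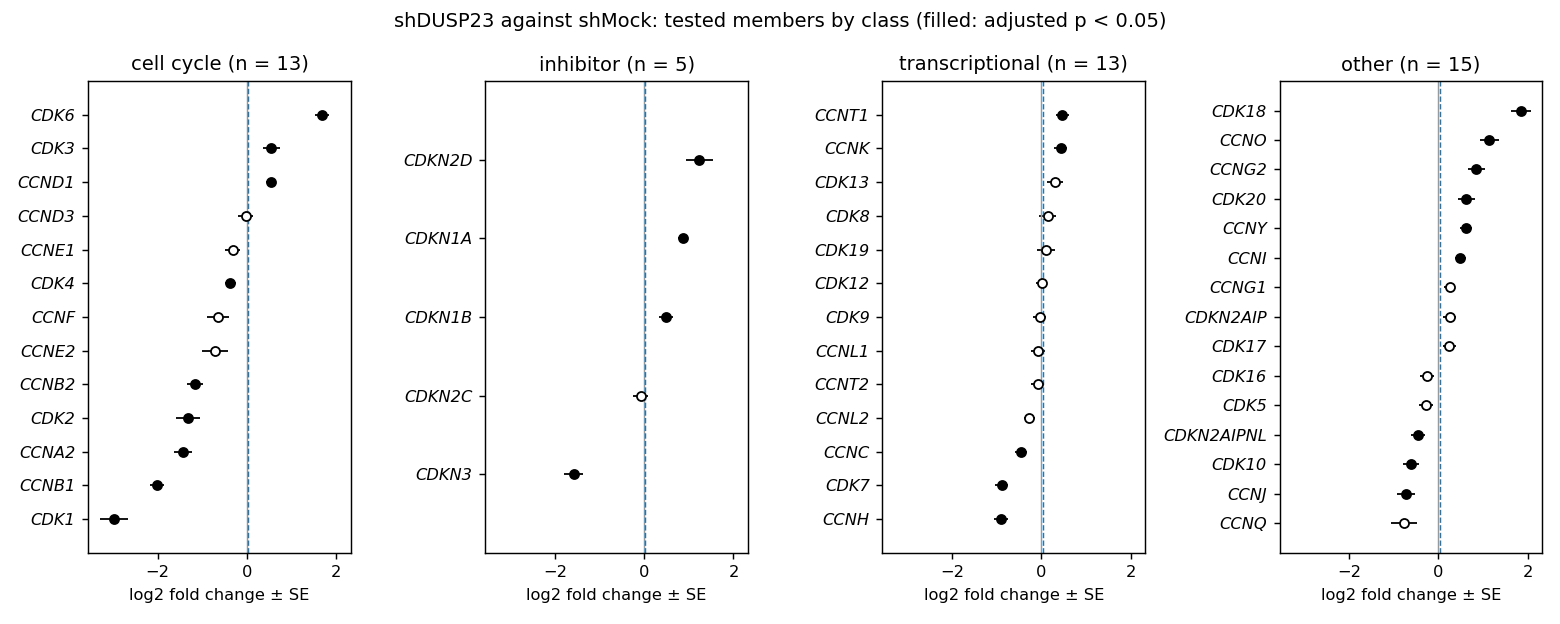
Log2 fold change (shDUSP23 minus shMock, log2(FPKM + 0.5) scale) of the 46 tested members, grouped by role, with bars of 1 standard error and filled points for members called at adjusted p under 0.05. The cell cycle members span -2.98 to 1.68, and the transcriptional members lie between -0.90 and 0.47.

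Of the 6 mitotic and S phase cyclins 4 were tested, and of these CCNB1, CCNB2 and CCNA2 were called lower, against 22.2% among all tested genes. Their median log2 fold change was -1.30, and CDK1, the kinase of the B cyclins, fell as well. CDK1 and CCNB1 had the 2 largest falls of the set. CDK1 (ENSG00000170312, chr10:60778365-60794852, plus strand, GRCh38), the kinase of mitosis, had 8.04 and 3.42 FPKM in shDUSP23 libraries, against 44.2 and 45.9 FPKM in shMock libraries. Its mean was 7.86-fold lower in shDUSP23 (log2 fold change -2.98, SE 0.31, limma with Benjamini-Hochberg adjusted p = 0.000206). CCNB1 (ENSG00000134057, chr5:69167135-69178245, plus strand), the cyclin that activates CDK1 at the start of mitosis, had 15.5 and 20.5 FPKM in shDUSP23, against 71.7 and 75.7 FPKM in shMock. This was 4.09-fold lower (log2 fold change -2.01, SE 0.15, limma adjusted p = 6.21e-05). Relative to the mean, the spread was wider in shDUSP23 (mean 18.0, SD 3.57 FPKM) than in shMock (mean 73.7, SD 2.80 FPKM). CCNB2, the second B-type cyclin of mitosis, had 7.28 and 8.94 FPKM in shDUSP23, against 20.8 and 17.01 FPKM in shMock (log2 fold change -1.17, SE 0.18, limma adjusted p = 0.00121). CCNA2, the cyclin A of dividing somatic cells, had 3.10 and 3.85 FPKM in shDUSP23, against 10.3 and 10.03 FPKM in shMock (log2 fold change -1.43, SE 0.20, limma adjusted p = 0.000767). The groups did not overlap for any of these 4 genes, which adds no evidence to their calls. Of all tested genes, 36.2% lay wholly lower in shDUSP23. CCNF, the F-box cyclin that marks proteins for destruction in G2, had 2.13 and 1.94 FPKM in shDUSP23 and 3.30 and 3.66 FPKM in shMock, which did not pass the test (log2 fold change -0.65, SE 0.25, limma adjusted p = 0.0598). After a correction for GC content and length CCNF passed, at -1.07. In bulk RNA, fewer cells in a phase of the cycle and less RNA per cell cannot be told apart.

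Promoters of genes expressed in G2 and M phase often hold a cell cycle genes homology region (CHR) beside CCAAT boxes, so the windows of the 4 genes that led this group are shown. They run from 250 bases before to 50 bases after the annotated start (RefSeq, GRCh38.p14) and are written 5′ to 3′ on the gene's strand. Capitals mark each match to the CHR letters TTTGAA or TTCGAA and each CCAAT box (CCAAT), on either strand. Other spellings of the CHR were not searched. The windows lie at chr10:60778228-60778527 (plus strand) for CDK1, chr5:69166900-69167199 (plus strand) for CCNB1, chr15:59104896-59105195 (plus strand) for CCNB2 and chr4:121823834-121824133 (minus strand) for CCNA2.
CDK1: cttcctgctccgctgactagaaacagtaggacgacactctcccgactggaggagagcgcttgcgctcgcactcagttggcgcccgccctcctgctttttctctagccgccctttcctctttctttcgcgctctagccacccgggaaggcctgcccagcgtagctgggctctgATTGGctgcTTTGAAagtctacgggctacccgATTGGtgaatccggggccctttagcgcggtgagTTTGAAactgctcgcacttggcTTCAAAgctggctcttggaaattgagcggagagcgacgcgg
CCNB1: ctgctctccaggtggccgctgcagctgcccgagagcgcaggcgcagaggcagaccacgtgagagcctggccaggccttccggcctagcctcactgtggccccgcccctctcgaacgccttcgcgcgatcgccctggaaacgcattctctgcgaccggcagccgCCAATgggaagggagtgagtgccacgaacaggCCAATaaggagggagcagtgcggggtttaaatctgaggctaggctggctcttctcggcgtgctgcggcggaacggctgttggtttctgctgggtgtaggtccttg
CCNB2: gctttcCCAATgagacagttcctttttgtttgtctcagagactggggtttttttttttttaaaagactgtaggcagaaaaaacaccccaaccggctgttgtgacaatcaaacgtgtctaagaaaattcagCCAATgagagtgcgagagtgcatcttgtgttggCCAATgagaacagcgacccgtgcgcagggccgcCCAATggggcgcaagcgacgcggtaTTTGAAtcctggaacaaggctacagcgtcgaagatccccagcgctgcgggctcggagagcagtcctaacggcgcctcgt
CCNA2: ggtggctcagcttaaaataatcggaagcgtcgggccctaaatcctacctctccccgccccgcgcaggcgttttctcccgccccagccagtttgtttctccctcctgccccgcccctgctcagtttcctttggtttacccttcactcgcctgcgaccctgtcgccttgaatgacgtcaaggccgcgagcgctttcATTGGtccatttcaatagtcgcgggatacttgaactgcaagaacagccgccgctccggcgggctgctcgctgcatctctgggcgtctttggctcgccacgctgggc
CDK1 had CHR letters starting 69 and 13 bases before the first transcribed base and at base 10 of the transcript, with CCAAT boxes 78 and 46 bases before it. In CCNB2 the CHR letters lay 29 bases before the start, with CCAAT boxes 244, 120, 87 and 54 bases before it. CCNB1 had CCAAT boxes 87 and 55 bases before the start and CCNA2 had one 56 bases before it, both with no match to these CHR letters in the window.

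A window was found for 46 members, but not for CCND1, CCND2, CCNE2, CDK2 or CDKN1C, which the motif counts leave out. CHR letters occurred in 4 of the 46 windows (8.70%), those of CDK1, CCNB2, CCNF and CDKN3, each together with a CCAAT box. Among all 35116 windows 16.4% held CHR letters and 6.38% held both motifs. A CCAAT box occurred in 18 of the 46 member windows (39.1%), against 34.6% of all windows, and an E2F site (TTTCCCGC, TTTGGCGC, TTTGCCGC or TTTCGCGC, either strand) in 3 (6.52%), against 3.31%. By call, CHR letters were found in 3 of 12 windows of members called lower, in 0 of 13 of members called higher and in 1 of 18 of members tested and not called, the other 3 windows being those of untested members. None of the 13 transcriptional windows held CHR letters. A match of letters is a description of the sequence and does not show that a factor binds there.

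**Figure D2:**
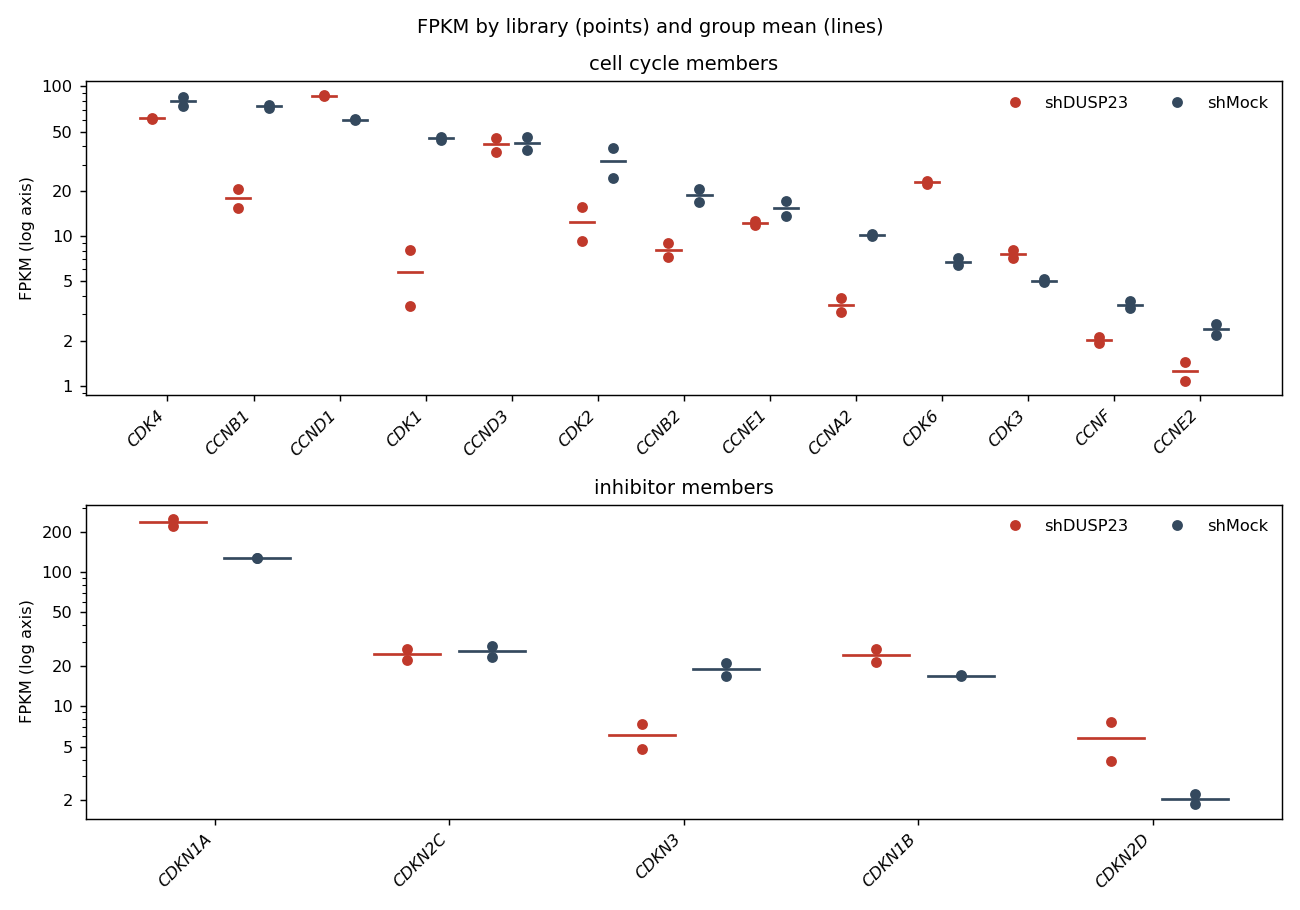
FPKM (log axis) of the tested cell cycle members and inhibitors, shDUSP23 (red) left of shMock (dark blue), each point 1 library and each line the group mean. CDK1, CCNB1, CCNB2 and CCNA2 lie lower in both shDUSP23 libraries, and CDK6, CCND1 and CDKN1A lie higher.

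The kinases and cyclins of G1 did not move together. CDK6 (ENSG00000105810, chr7:92604921-92836573, minus strand) and CDK4 are the paired partners of the D cyclins. CDK6 had 23.5 and 22.2 FPKM in shDUSP23, against 7.11 and 6.41 FPKM in shMock, a 3.38-fold rise (log2 fold change 1.68, SE 0.15, limma with Benjamini-Hochberg adjusted p = 0.000131). CDK4 had 62.0 and 60.3 FPKM in shDUSP23, against 74.05 and 84.8 FPKM in shMock (log2 fold change -0.37, SE 0.12, limma adjusted p = 0.0356). The CDK4 call was lost with equal sums (-0.04, limma adjusted p = 0.821) and without shDUSP23 replicate 1, shDUSP23 replicate 2 or shMock replicate 2 (-0.39, -0.35 and -0.27, with limma adjusted p of 0.0674, 0.102 and 0.199). Within each library CDK6 stood at 0.378 and 0.368 of the CDK4 level in shDUSP23 and at 0.0961 and 0.0756 of it in shMock, a ratio that library scaling cannot change. CDK2, the kinase of S phase, had 15.7 and 9.23 FPKM in shDUSP23, against 38.6 and 24.6 FPKM in shMock. Its replicates lay far apart within both groups, but the groups did not overlap (log2 fold change -1.32, SE 0.27, limma adjusted p = 0.00501). Without shMock replicate 1 the change in CDK2 was -1.0 and did not pass (limma adjusted p = 0.0592).

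CCND1 (cyclin D1, chr11:69641156-69654474, plus strand), the cyclin with the highest mean level over the 4 libraries, had 86.5 and 87.3 FPKM in shDUSP23, against 60.4 and 59.7 FPKM in shMock (log2 fold change 0.53, SE 0.11, limma with Benjamini-Hochberg adjusted p = 0.00531). CCND3, its relative, had 36.6 and 45.4 FPKM in shDUSP23 and 37.6 and 45.8 FPKM in shMock, and the difference of -0.03 did not pass (limma adjusted p = 0.906). The E cyclins did not pass either. CCNE1 had 12.5 and 11.8 FPKM in shDUSP23 and 17.3 and 13.6 FPKM in shMock (log2 fold change -0.32, limma adjusted p = 0.152), and the difference was 0.00 at equal sums. CCNE2 had 1.44 and 1.08 FPKM in shDUSP23 and 2.20 and 2.58 FPKM in shMock (log2 fold change -0.72, limma adjusted p = 0.0744), and passed without shDUSP23 replicate 1 (-0.87, limma adjusted p = 0.0377). CDK3, a kinase linked to the exit from quiescence, had 7.15 and 8.14 FPKM in shDUSP23, against 5.16 and 4.93 FPKM in shMock (log2 fold change 0.55, SE 0.19, limma adjusted p = 0.0423). This call was lost in 7 of the alternatives, among them the leaving out of shDUSP23 replicate 2, shMock replicate 1 or shMock replicate 2 (0.46, 0.58 and 0.52, with limma adjusted p of 0.119, 0.142 and 0.195). CDK3 also overlaps the readthrough gene TEN1-CDK3 on the same strand, listed at 2.48 and 0.806 FPKM in shDUSP23 and 2.07 and 2.41 FPKM in shMock.

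The cell cycle members below the level for testing were CCNA1, CCNB3 and CCND2. CCNA1, the cyclin A of the germ line, had 0.349 and 0.334 FPKM in shDUSP23 and 0.609 and 0.513 FPKM in shMock. CCNB3, a cyclin of meiosis, had 1.04 and 0 FPKM in shDUSP23 and 0.906 and 0.351 FPKM in shMock. For CCND2, the remaining D cyclin, the only listed transcript (CCND2-205) is not annotated as coding. Its values were 0 and 1.05 FPKM in shDUSP23 and 0.835 and 0.704 FPKM in shMock, and the listed gene AC008012.1 overlaps it on the same strand. The CCNA1 values stood for about 16 and 24 fragments in shDUSP23 and 22 and 22 in shMock, and for CCNB3 and CCND2 a shDUSP23 library listed at 0 stood beside one near 1 FPKM, so none of these was compared.

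Of the 5 tested genes of the inhibitor class 3 were called higher and 1 lower, against 23.1% and 22.2% of all tested genes. CDKN1A (p21, ENSG00000124762, chr6:36678710-36687337, plus strand), a CIP/KIP inhibitor that binds several cyclin-CDK complexes, was the most abundant gene of the whole set. It had 220.1 and 249.7 FPKM in shDUSP23, against 128 and 128 FPKM in shMock, with means of 234.9 ± 20.9 and 128.2 ± 0.263 FPKM (SD, n = 2 each). The rise was 0.87 on the log2 scale (SE 0.12, limma with Benjamini-Hochberg adjusted p = 0.000655). CDKN1B (p27), the CIP/KIP inhibitor of quiescent cells, had 26.8 and 21.4 FPKM in shDUSP23, against 16.8 and 16.96 FPKM in shMock (log2 fold change 0.49, SE 0.15, limma adjusted p = 0.0306). Without shDUSP23 replicate 1, shMock replicate 1 or shMock replicate 2 it was 0.33, 0.49 and 0.50 and did not pass (limma adjusted p of 0.130, 0.131 and 0.133), and a further listed gene, AC008115.3, overlaps it on the same strand. CDKN2D (p19), an INK4 inhibitor, had 3.91 and 7.58 FPKM in shDUSP23, against 1.86 and 2.22 FPKM in shMock. The groups did not overlap, though the shDUSP23 replicates lay far apart (log2 fold change 1.24, SE 0.31, limma adjusted p = 0.0126). Without shMock replicate 1 or 2 the CDKN2D change was 1.13 and 1.34 and did not pass (limma adjusted p of 0.0917 and 0.0665), and without shDUSP23 replicate 2 it was 0.80. CDKN2C (p18), the other INK4 inhibitor, had 22.0 and 26.6 FPKM in shDUSP23 and 23.3 and 28.2 FPKM in shMock, overlapping groups with a log2 difference of -0.08 (limma adjusted p = 0.699).

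CDKN3 carries an inhibitor's name but encodes a phosphatase that removes the activating phosphate from CDKs, and it moved the other way. It had 7.34 and 4.78 FPKM in shDUSP23, against 16.7 and 21.1 FPKM in shMock (log2 fold change -1.58, SE 0.22, limma with Benjamini-Hochberg adjusted p = 0.000844). CDKN1C (p57), the last CIP/KIP member, was below the level for testing, with 0.559 and 0.159 FPKM in shDUSP23 and 0.197 and 0.0996 FPKM in shMock, which stood for about 18 and 8 fragments in shDUSP23 and about 5 and 3 in shMock.

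Ratios between members of one library are free of the scaling of that library and showed how the balance of the transcripts differed. Per CDK1 transcript level there was 27.4 and 73.0 times as much CDKN1A in shDUSP23, against 2.90 and 2.80 times as much in shMock. The ratio of CDKN1A to CDK2 was 14.0 and 27.1 in shDUSP23, against 3.32 and 5.21 in shMock. CCNT1 to CDK9 stood at 1.22 and 1.13 in shDUSP23, against 0.823 and 0.812 in shMock. The ratio of CCND1 to CCNB1 was 5.58 and 4.25 in shDUSP23, against 0.842 and 0.789 in shMock. In these 4 ratios the groups did not overlap. They did not overlap either for CCND1 to CDK4, CCNC to CDK8 or CDK13 to CDK12, so such separation was common among the ratios. For CDKN1A to CDK1, CDKN1A to CDK2 and CCND1 to CCNB1 it follows from the opposite differences of the genes and adds no evidence. For CCNT1 to CDK9 it mostly restates the rise of CCNT1, which was already called. The ratios to CDK1 and CDK2 lay far apart between the shDUSP23 replicates. CCNB1 per CDK1 was 1.93 and 6.004 in shDUSP23 and 1.62 and 1.65 in shMock, so the shDUSP23 libraries did not share one value. Sums by class do depend on the scaling, and the sum over all genes was itself lower in shDUSP23. The cell cycle members summed to 283 and 286 FPKM in shDUSP23, against 395 and 396 FPKM in shMock, and the transcriptional members to 357 and 326 FPKM in shDUSP23, against 392.3 and 379 FPKM in shMock. The inhibitors summed to 281 and 310.2 FPKM in shDUSP23, against 187 and 197 FPKM in shMock, most of it CDKN1A.

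**Figure D3:**
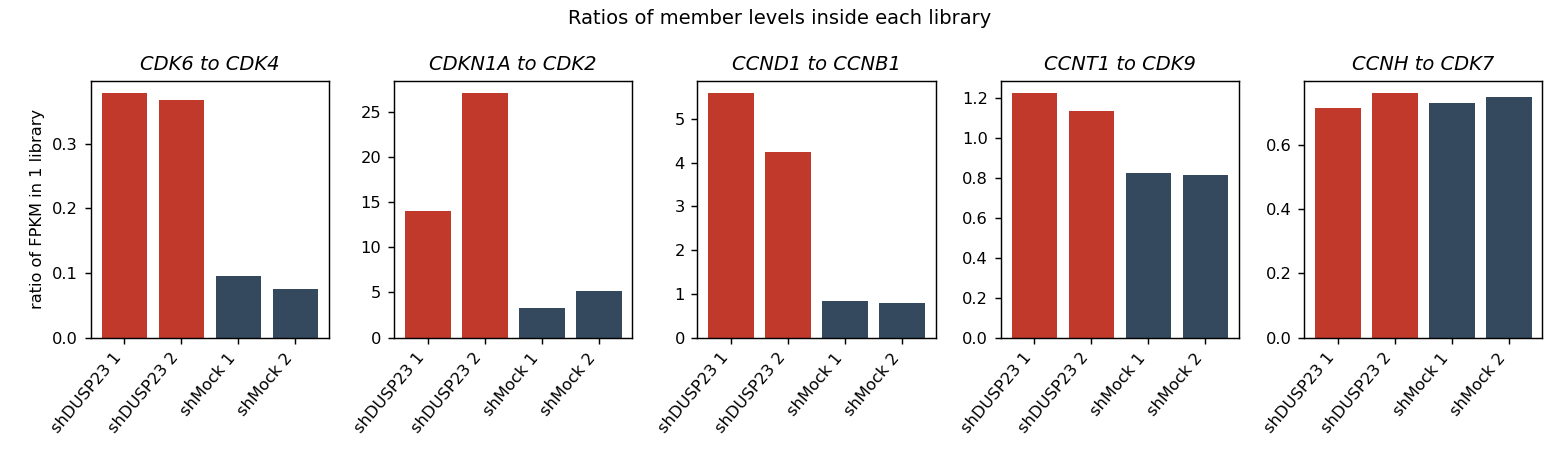
Ratios of FPKM between members within each library, 1 bar per library, shDUSP23 (red) left of shMock (dark blue). CDK6 to CDK4, CDKN1A to CDK2, CCND1 to CCNB1 and CCNT1 to CDK9 are higher in both shDUSP23 libraries, and CCNH to CDK7 lies between 0.713 and 0.761 in all 4.

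Set against each other within each library, the median level of the tested cell cycle members, as log2(FPKM + 0.5), minus that of transcriptional members was -0.85 and -1.23 in shDUSP23, against -0.22 and -0.56 in shMock. The cell cycle median itself was 3.70 and 3.28 in shDUSP23 and 4.41 and 4.13 in shMock, while the transcriptional median was 4.56 and 4.51 in shDUSP23 and 4.63 and 4.69 in shMock. The groups did not overlap in this difference, while among all tested genes 39.3% lay wholly higher and 36.2% wholly lower. Each cell cycle median was the level of a single gene. That gene was CCNE1 in shDUSP23 replicate 1, CDK2 in shDUSP23 replicate 2 and CCNB2 in both shMock libraries. Between the classes, the medians of the log2 fold changes differed by -0.61, and by -0.41 with no filter on low values, -0.31 with a filter at 5 FPKM and -0.27 with coding transcripts alone.

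Of the 13 transcriptional members 8 did not pass, beside 7489 of the 13691 genes tested in all. The largest changes in this class were falls of CDK7 and CCNH, subunits of the CDK-activating kinase. CDK7 (chr5:69234841-69277430, plus strand), its catalytic subunit, had 30.1 and 22.9 FPKM in shDUSP23, against 50.4 and 48.0 FPKM in shMock (log2 fold change -0.89, SE 0.15, limma with Benjamini-Hochberg adjusted p = 0.00214). CCNH (chr5:87318416-87412930, minus strand), its cyclin, had 21.5 and 17.4 FPKM in shDUSP23, against 36.9 and 35.9 FPKM in shMock (log2 fold change -0.90, SE 0.15, limma adjusted p = 0.00165). The ratio of CCNH to CDK7 was 0.713 and 0.761 in shDUSP23 and 0.731 and 0.748 in shMock, so the ranges of the groups overlapped. MNAT1, the assembly subunit of the complex, had 40.3 and 31.04 FPKM in shDUSP23 and 37.9 and 42.1 FPKM in shMock, overlapping groups that did not pass (log2 difference -0.17, limma adjusted p = 0.388). Counting coding transcripts alone, CCNH changed by -0.81 and did not pass (limma adjusted p = 0.0579).

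P-TEFb, Mediator and cyclin K genes moved less. CCNT1, the main cyclin of P-TEFb, had 23.1 and 25.0 FPKM in shDUSP23, against 17.3 and 17.1 FPKM in shMock (log2 fold change 0.47, SE 0.14, limma with Benjamini-Hochberg adjusted p = 0.0224). CDK9, its kinase, had 18.9 and 22.1 FPKM in shDUSP23 and 21.1 and 21.0 FPKM in shMock (log2 difference -0.04, limma adjusted p = 0.830), and CCNT2, the alternative cyclin, had 22.1 and 21.9 FPKM in shDUSP23 and 21.4 and 25.3 FPKM in shMock (-0.08, limma adjusted p = 0.685). CCNK, the cyclin of CDK12 and CDK13, had 32.0 and 28.9 FPKM in shDUSP23, against 24.3 and 20.8 FPKM in shMock (log2 fold change 0.43, SE 0.14, limma adjusted p = 0.0380). CDK12 had 39.6 and 38.5 FPKM in shDUSP23 and 40.8 and 36.7 FPKM in shMock, a log2 difference of 0.01 (limma adjusted p = 0.939). CDK13 had 18.1 and 13.1 FPKM in shDUSP23 and 12.6 and 11.9 FPKM in shMock (log2 difference 0.31, limma adjusted p = 0.193), and passed at equal sums (0.64) and without shDUSP23 replicate 2 (0.54). CCNC, the cyclin of the Mediator kinases, had 25.1 and 22.3 FPKM in shDUSP23, against 31.1 and 34.1 FPKM in shMock (log2 fold change -0.45, SE 0.14, limma adjusted p = 0.0257). Its kinases did not pass, with CDK8 at 9.23 and 7.73 FPKM in shDUSP23 and 8.62 and 6.74 FPKM in shMock, and CDK19 at 5.01 and 5.31 FPKM in shDUSP23 and 4.74 and 4.81 FPKM in shMock. CCNL1 and CCNL2, cyclins of RNA splicing, had log2 differences of -0.07 and -0.27 and did not pass (limma adjusted p of 0.734 and 0.106).

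The calls of CCNC, CCNK and CCNT1 were lost under several settings, while their fold changes kept their direction with each library left out. CCNC lost its call at equal sums (-0.12) and after the GC and length correction (-0.13), and also without shDUSP23 replicate 2, shMock replicate 1 or shMock replicate 2 (-0.37, -0.52 and -0.39). CCNK lost it without shDUSP23 replicate 1, shMock replicate 1 or shMock replicate 2 (0.35, 0.54 and 0.32), and CCNT1 without shDUSP23 replicate 2, shMock replicate 1 or shMock replicate 2 (0.41, 0.48 and 0.46). With coding transcripts alone CCNK (0.38) and CCNT1 (0.34) also missed the threshold, and at equal sums both were called (0.76 and 0.80).

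**Figure D4:**
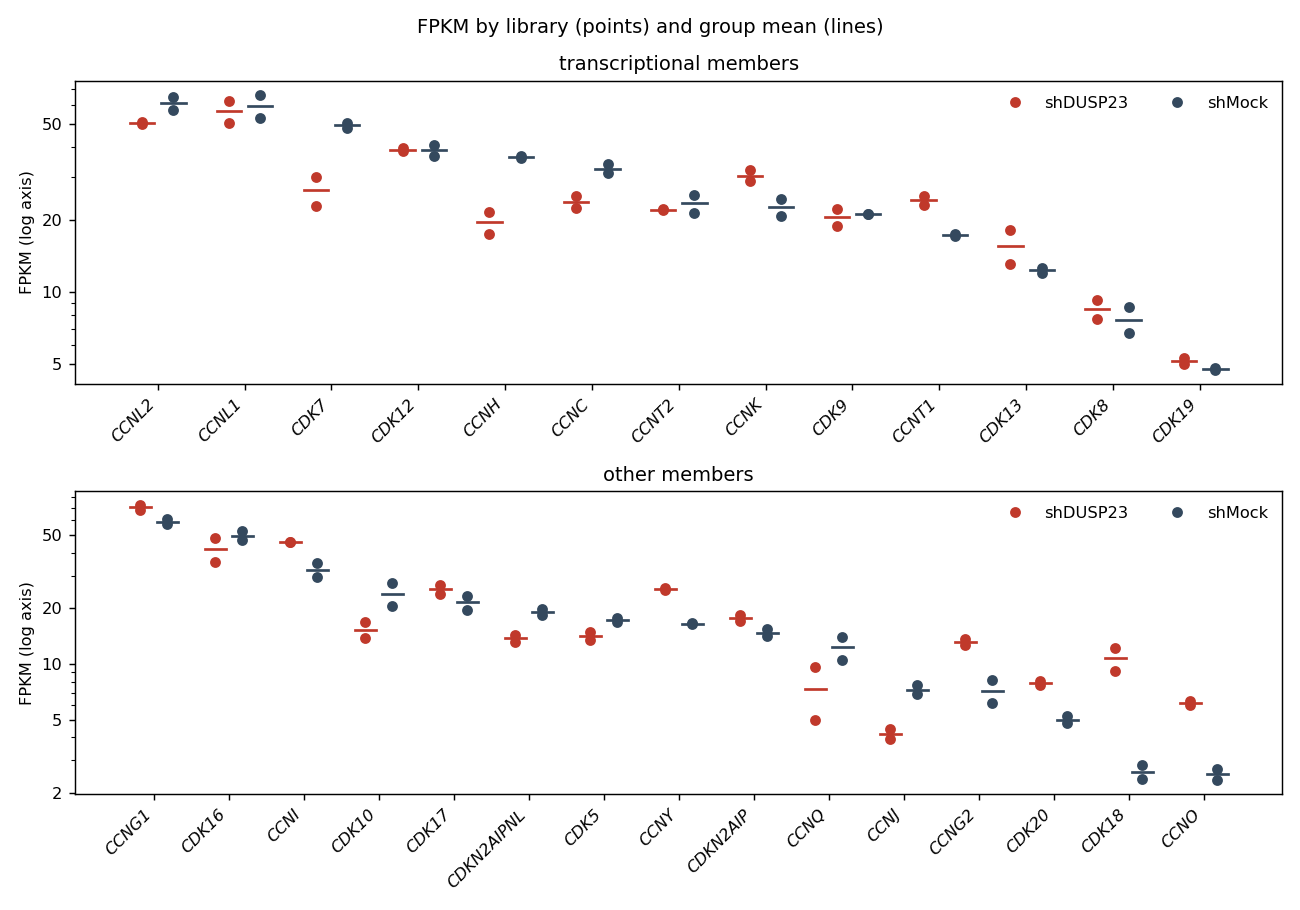
FPKM (log axis) of the tested transcriptional members and other relatives, shDUSP23 (red) left of shMock (dark blue), each point 1 library and each line the group mean. CDK7, CCNH and CCNC lie lower in both shDUSP23 libraries, and CCNT1, CCNK and CDK18 lie higher.

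Of the other relatives, CDK18 (chr1:205504669-205532793, plus strand), a kinase of the PCTAIRE family, had the largest rise of the set. It had 9.16 and 12.3 FPKM in shDUSP23, against 2.39 and 2.82 FPKM in shMock (log2 fold change 1.84, SE 0.22, limma with Benjamini-Hochberg adjusted p = 0.000402). Its family members CDK16 and CDK17 did not pass, at 35.6 and 48.5 FPKM in shDUSP23 and 46.8 and 52.5 FPKM in shMock for CDK16, and at 26.9 and 24.0 FPKM in shDUSP23 and 23.5 and 19.6 FPKM in shMock for CDK17. The sign of CDK16 turned at equal sums (-0.25 against 0.08), and it passed, at -0.47 on the scale as deposited, without shDUSP23 replicate 2. CCNG2, an atypical cyclin linked to cell cycle arrest, had 12.6 and 13.7 FPKM in shDUSP23, against 8.16 and 6.11 FPKM in shMock (log2 fold change 0.85, SE 0.19, limma adjusted p = 0.00695). CCNG1, its relative, had 72.6 and 68.8 FPKM in shDUSP23 and 61.2 and 57.3 FPKM in shMock, which did not pass (log2 difference 0.25, limma adjusted p = 0.105) but did at equal sums (0.59). CCNI, a cyclin found in non-dividing tissues, had 46.0 and 45.7 FPKM in shDUSP23, against 35.2 and 29.8 FPKM in shMock (log2 fold change 0.49, SE 0.13, limma adjusted p = 0.0161). CDK20, a kinase of cilia and growth control, had 8.13 and 7.73 FPKM in shDUSP23, against 4.78 and 5.22 FPKM in shMock (log2 fold change 0.62, SE 0.19, limma adjusted p = 0.0261).

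CCNO and CCNY were called higher from transcripts that include noncoding ones. CCNO, a cyclin of multiciliated cells, had 6.32 and 5.98 FPKM in shDUSP23, against 2.705 and 2.34 FPKM in shMock (log2 fold change 1.14, SE 0.22, limma with Benjamini-Hochberg adjusted p = 0.00352). Its coding transcript CCNO-201 had 3.92 and 0 FPKM in shDUSP23 and 1.07 and 0.961 FPKM in shMock, and with coding transcripts alone CCNO changed by -0.03 (limma adjusted p = 0.983). CCNY, a membrane-bound cyclin, had 25.0 and 25.9 FPKM in shDUSP23, against 16.4 and 16.7 FPKM in shMock (log2 fold change 0.61, SE 0.13, limma adjusted p = 0.00681), and 0.14 with coding transcripts alone (limma adjusted p = 0.484).

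Called lower were CCNJ, CDK10 and CDKN2AIPNL. CCNJ, a cyclin of little known function, had 4.43 and 3.94 FPKM in shDUSP23, against 7.67 and 6.85 FPKM in shMock (log2 fold change -0.73, SE 0.20, limma with Benjamini-Hochberg adjusted p = 0.0173). CDK10, the kinase partner of cyclin Q, had 13.9 and 16.8 FPKM in shDUSP23, against 20.6 and 27.5 FPKM in shMock (log2 fold change -0.62, SE 0.18, limma adjusted p = 0.0228). CCNQ itself had 4.96 and 9.62 FPKM in shDUSP23 and 10.6 and 14.0 FPKM in shMock, which did not pass (log2 difference -0.77, SE 0.29, limma adjusted p = 0.0563), and passed without shDUSP23 replicate 2 (-1.22, limma adjusted p = 0.00134). CDKN2AIPNL had 14.4 and 13.2 FPKM in shDUSP23, against 18.4 and 20.0 FPKM in shMock (log2 fold change -0.46, SE 0.15, limma adjusted p = 0.0325). CDKN2AIP, which binds the ARF tumour suppressor, and CDK5, the kinase of neurons, did not pass, with log2 differences of 0.25 and -0.28. CCNI2 was below the level for testing, at 0.241 and 0.489 FPKM in shDUSP23 and listed at 0 in both shMock libraries.

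A fit with 1 library left out takes the spread from the other group alone and has fewer residual degrees of freedom, so a call can be lost while the fold change stays. Of these 9 calls, those of CDK18 and CCNO held with each library left out. Without shMock replicate 2 the calls of CCNG2 (0.66), CCNI (0.37), CCNY (0.62), CCNJ (-0.80), CDK10 (-0.42), CDK20 (0.68) and CDKN2AIPNL (-0.40) were lost. Without shMock replicate 1 those of CCNJ (-0.65), CDK20 (0.56) and CDKN2AIPNL (-0.52) were lost, without shDUSP23 replicate 1 those of CDK10 (-0.49) and CDK20 (0.58), and without shDUSP23 replicate 2 that of CDKN2AIPNL (-0.40). At equal sums CCNJ (-0.42), CDK10 (-0.29) and CDKN2AIPNL (-0.13) were not called. CDK20 also missed the threshold after the GC and length correction (0.38) and with coding transcripts alone (0.44), CDK10 with coding transcripts alone (-0.34), and CDKN2AIPNL after that correction (-0.31). Of the 27 called members, 10 overlap another listed gene, mostly on the opposite strand, and reads of the partners could not be told apart if strand was not used in counting, which the sources used here do not give. CDK4 with TSPAN31 and CCNA2 with EXOSC9 are examples.

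At the level of single transcripts, 156 of the 219 listed were tested among 37453, and 2 were called higher and 3 lower. Of all tested transcripts 1.7% were called higher and 2.45% lower. Each of the 5 was a coding transcript of a gene called in the same direction. CDK1-203 had 7.71 and 3.15 FPKM in shDUSP23, against 37.9 and 42.5 FPKM in shMock (log2 fold change -2.89, limma with Benjamini-Hochberg adjusted p = 0.0459). CCNB1-204 had 8.60 and 12.4 FPKM in shDUSP23, against 38.2 and 42.3 FPKM in shMock (-1.91, limma adjusted p = 0.0352). CCNA2-201, the only listed transcript of its gene, passed with limma adjusted p = 0.0494. CDKN1A-201, which made up 98.0% and 98.3% of CDKN1A in shDUSP23 and 95.4% and 96.2% in shMock, had 216 and 245 FPKM in shDUSP23, against 122 and 124 FPKM in shMock (0.90, limma adjusted p = 0.0366). CDK18-203 had 6.57 and 9.33 FPKM in shDUSP23, against 1.78 and 1.53 FPKM in shMock (1.96, limma adjusted p = 0.0489). No gene had transcripts called in both directions. With any 1 of the 4 libraries left out, or with the replicate number as a block, 0 member transcripts were called, and a pseudocount of 0.1 FPKM left 1 higher and 1 lower.

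**Figure D5:**
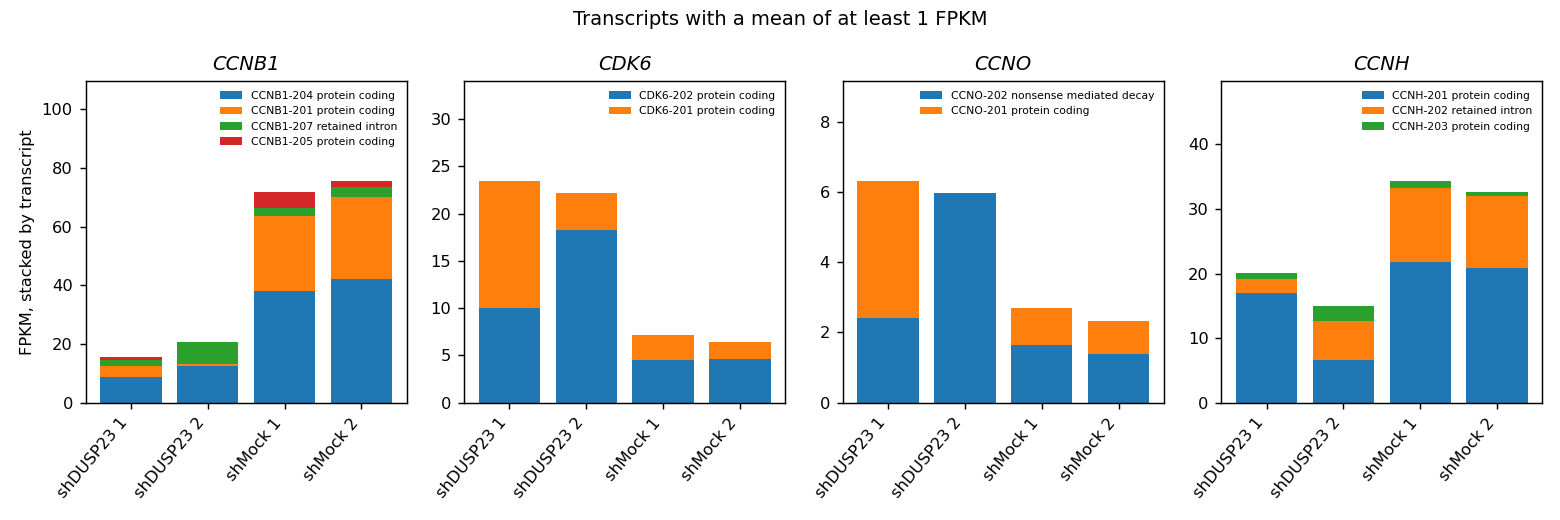
FPKM of the transcripts of CCNB1, CDK6, CCNO and CCNH that average at least 1 FPKM, stacked by transcript in 1 bar per library, shDUSP23 left of shMock. The CCNB1 total is lower in both shDUSP23 libraries, and the CDK6 total is split differently between its transcripts in the 2 shDUSP23 libraries.

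In some members the split between transcripts differed among libraries. CDK6-201 had 13.5 and 3.93 FPKM in shDUSP23 and 2.57 and 1.82 FPKM in shMock, and CDK6-202 had 10.02 and 18.3 FPKM in shDUSP23 and 4.54 and 4.59 FPKM in shMock, so both shDUSP23 values of each lay above the shMock values, and the larger share changed places between the shDUSP23 replicates. In CCNB1 the coding transcript CCNB1-201 had 3.85 and 0.793 FPKM in shDUSP23 and 25.5 and 27.98 FPKM in shMock (-3.52, limma with Benjamini-Hochberg adjusted p = 0.0605), while CCNB1-207, which retains an intron, had 2.08 and 7.31 FPKM in shDUSP23 and 2.54 and 3.34 FPKM in shMock. Noncoding transcripts made up 13.4% and 35.6% of CCNB1 in shDUSP23, against 3.54% and 4.41% in shMock. For CCNH, the coding CCNH-201 had 16.96 and 6.53 FPKM in shDUSP23 and 21.8 and 20.8 FPKM in shMock, and the retained-intron CCNH-202 had 2.14 and 6.12 FPKM in shDUSP23 and 11.4 and 11.3 FPKM in shMock. The transcriptional kinases differed in their noncoding share. It was larger in shDUSP23 for CDK8, at 52.7% and 40.7% in shDUSP23 against 24.0% and 18.3% in shMock. For CDK19 it was 30.6% and 30.3% in shDUSP23 against 6.57% and 19.1% in shMock. It was smaller for CDK9, at 30.9% and 31.2% in shDUSP23 against 47.7% and 44.7% in shMock. For CDK12 it was 30.6% and 33.8% in shDUSP23 against 35.4% and 37.7% in shMock. The groups overlapped for CDK7 and CDK13. These shares were not tested. Noncoding transcripts were the larger part of CCNL1 in every library, at 83.2% and 78.2% in shDUSP23 and 86.0% and 87.8% in shMock, and of CDK10, at 84.8% and 80.3% in shDUSP23 and 79.4% and 89.6% in shMock.

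Regulators of the cell cycle CDKs outside the set were called in both directions. Of 32 such genes (retinoblastoma and E2F families, the DREAM and MuvB subunits, phosphatases and kinases that act on CDKs, and their ubiquitin ligases) 30 were tested, 6 were higher and 12 lower, against 23.1% higher and 22.2% lower among all tested genes, with a median log2 fold change of -0.26. At equal sums 9 were higher and 10 lower, with a filter at 5 FPKM 6 were higher and 7 lower, and without shMock replicate 2 the counts were 2 higher and 9 lower. CKS2 and CKS1B encode small subunits that dock on CDKs. CKS2 had 32.8 and 31.2 FPKM in shDUSP23, against 116 and 128 FPKM in shMock (-1.91, limma with Benjamini-Hochberg adjusted p = 3.1e-05), and CKS1B had 55.7 and 53.7 FPKM in shDUSP23, against 129.7 and 137 FPKM in shMock (-1.28, limma adjusted p = 0.000112). CDC20, the activator of the anaphase-promoting complex in mitosis, had 3.68 and 3.81 FPKM in shDUSP23, against 16.4 and 12.97 FPKM in shMock (-1.83, limma adjusted p = 0.000213). MYBL2, the partner of MuvB at G2 and M phase promoters, had 2.80 and 3.27 FPKM in shDUSP23, against 10.6 and 10.6 FPKM in shMock (-1.65, limma adjusted p = 0.000358). These 4 were taken for the smallest p among the tested regulators. That choice favours groups lying far apart beside the spread of their replicates.

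Of the called regulators, 6 were higher, beside the 12 that were lower. MDM2, which encodes a ubiquitin ligase, had 127 and 126 FPKM in shDUSP23, against 83.3 and 77.0 FPKM in shMock, a log2 fold change of 0.65. LIN37 (0.94) and LIN52 (0.71) encode MuvB subunits, FZR1 (0.88) the G1 activator of the anaphase-promoting complex, FBXW7 (0.67) the receptor of the ligase that targets cyclin E, and E2F6 (0.51) a repressor of the E2F family. Without shMock replicate 2 the changes of LIN52 (0.77), FZR1 (0.70), FBXW7 (0.57) and E2F6 (0.34) did not pass, without shMock replicate 1 those of LIN52 (0.66) and FBXW7 (0.77), without shDUSP23 replicate 1 that of FBXW7 (0.47), and without shDUSP23 replicate 2 that of E2F6 (0.41). RB1, which encodes the retinoblastoma protein, had a log2 difference of -0.07 and did not pass.

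Of 9 partners of the transcriptional CDKs, all tested, 4 were higher and 2 lower, against 23.1% and 22.2% of all tested genes, with a median log2 fold change of 0.32. Without shMock replicate 2 the counts were 1 higher and 1 lower, without shMock replicate 1 they were 4 and 1, at equal sums 5 and 1, and after the GC and length correction 3 and 1. HEXIM1, which holds P-TEFb inactive, had 20.1 and 22.5 FPKM in shDUSP23, against 49.0 and 48.2 FPKM in shMock (-1.18, limma with Benjamini-Hochberg adjusted p = 0.000256). LARP7, a protein of the same inhibitory particle, had 20.9 and 22.9 FPKM in shDUSP23, against 33.5 and 32.3 FPKM in shMock (-0.58). AFF4, the scaffold of the super elongation complex, had 73.1 and 69.2 FPKM in shDUSP23, against 44.4 and 37.2 FPKM in shMock (0.80). The groups did not overlap in these 3 genes, but they were among the 4 partners of smallest p, so this adds no evidence. Of all tested genes, 39.3% lay wholly higher and 36.2% wholly lower in shDUSP23. LARP7 lost its call at equal sums (-0.25), after the GC and length correction (-0.19) and without shMock replicate 1 or 2 (-0.55 and -0.60). CDK11A and CDK11B are near copies of each other, so the way reads were split between them is uncertain.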

How the data were processed

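Expression was measured by RNA sequencing in 4 libraries of A549 cells, 2 labelled shDUSP23 and 2 labelled shMock. The authors deposited FPKM, 1 value per transcript and library, for 56389 transcripts. STAR 2.7.1a, DESeq2 1.32.0 and GRCh38 are named in the submitters' processing notes, per the labels an mRNA library kit was used, and the quantifier, strandedness and filters are not stated in the sources used here. Transcripts were summed per gene ID.

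Fragment totals were recovered from single-transcript genes (2312 genes, GENCODE 29 lengths, up to 50 fragments), where 91.4% and 93.4% of values in shDUSP23 and 91.2% and 91.1% in shMock were whole within 0.1 fragment. These totals of 21273100 to 42158700 fragments set the precision of low values and cover counting error only. No count test was used, since gene sums over several transcripts are estimates.

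Genes averaging 1 FPKM or more were tested with limma 3.58.1 (lmFit, eBayes with trend, R 4.3.3) on log2(FPKM + 0.5), without covariates or rescaling, two-sided, with Benjamini-Hochberg adjustment over all 13691 genes, and called at adjusted p under 0.05. The pseudocount makes the fold changes of low genes too small. The script was tested on simulated data. A second fit used transcripts as features. The members, gene lists and tests were chosen with earlier results of these data known. Every listed member was named, with the 4 regulators and 4 partners of smallest p, any called gene that moved against the majority of its list, and DUSP23, except 1 partner that is not reported here. RB1, MNAT1, CDK11A and CDK11B were added outside that rule after their values were seen. Alternatives were other pseudocounts, filters and scalings (equal sums, median ratio), robust eBayes, coding transcripts alone, a GC and length correction (13563 genes), a replicate block and each library left out, where the lone library was assumed to vary like the other group. The transcript fit without each library was added after seeing the data. Promoter windows (RefSeq, GRCh38.p14) were matched by symbol, at the start nearest to that of the most abundant listed transcript. Python 3.11.15 with pandas 2.3.3 and matplotlib 3.10.9 made the summaries and figures.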

Additional observations from a re-analysis of the deposited data

How the results depend on the processing

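Fold changes in this section are log2, shDUSP23 minus shMock. The difference between the cell cycle and transcriptional medians (-0.61) was -0.41 with no filter, -0.31 with a filter at a mean of 5 FPKM and -0.27 with coding transcripts alone, and -0.80 to -0.54 with 1 library left out. Equal sums gave 5279 genes higher and 1693 lower, 18 members higher and 8 lower, and 3 member transcripts higher and 1 lower. With coding transcripts alone 9 members and 0 transcriptional members were higher. With a filter at 5 FPKM 7 regulators were lower, and at equal sums or after GC and length correction, with or without the block, 1 partner was lower. A pseudocount of 0.1 FPKM gave 1 member transcript higher and 1 lower. With 1 library left out, 1613 to 3232 genes were higher and 1645 to 3159 lower, as were 5 to 13 and 8 to 12 members, 2 to 3 and 5 to 6 cell cycle members, 0 to 2 and 2 to 3 transcriptional members, 1 to 3 and 1 inhibitors, 2 to 5 and 9 to 12 regulators, 1 to 4 and 1 to 2 partners, and 0 member transcripts in both directions. The replicate numbers were not shown to pair the libraries (r = 0.053 between same-numbered deviations over 13691 genes). With the number as a replicate block 3398 genes were higher and 3309 lower, 14 members each way, and 0 member transcripts in both directions, and after GC and length correction with the block 15 members were higher and 16 lower.

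Differences that did not pass, and CCNO, turned in sign. At equal sums they were CCNT2 0.25, CDK16 0.08, CCNE1 0.00, CCND3 0.31, CDKN2C 0.25, CDK9 0.29, CCNL1 0.26, CDK5 0.05 and CCNL2 0.07. After the GC and length correction, with or without the block, they were CCNT2 0.11, CDKN2C 0.01, CCNL1 0.24 and CDK12 -0.11. With coding transcripts alone they were CDK8 -0.39, CDK9 0.30, CCNO -0.03, CDK19 -0.18 and CCNL1 0.45, and with median-ratio scaling CDK12 was -0.02. With 1 library left out the ranges crossing 0 were CCND3 -0.18 to 0.13, CDKN2C -0.22 to 0.06, CCNT2 -0.20 to 0.04, CDK8 -0.03 to 0.30, CDK9 -0.15 to 0.07, CCNL1 -0.23 to 0.09 and CDK12 -0.06 to 0.09. After the GC and length correction CDK16 (-0.42), CDK5 (-0.43), CCNL2 (-0.33), CDK17 (0.40) and CDKN2AIP (0.41) passed the threshold. Beyond the leave-one-out settings, 16 of 46 members kept direction and side of the threshold throughout. Where a value moved, the cause was not tested.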
